A study of Mus musculus with 8 samples.

Results

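The comparison set mouse fetal liver erythroid progenitors carrying the first of 2 hairpins against an RNA-binding protein (shRNA1) beside the same kind of cells carrying a control virus, both cultured with DEX. It used 4 of the 8 arrays of the series, chosen by their titles: 2 with shRNA1 and 2 with control virus. The cells came from C57BL/6 embryos at E14.5. Mature blood cells and cells positive for Sca-1, CD16/32, CD41 or CD34 had been depleted on magnets, and c-kit positive cells low for CD71 had then been sorted. All 4 cultures were infected and grown for 3 days with DEX, so the control cells carried a virus and the glucocorticoid as well. The labels name the targeted protein only as RBP; that it is Zfp36l2 is knowledge of the published study. The labels give neither the virus type nor the hairpin sequence, and do not say whether replicates came from separate cultures or animals, so p-values measure only the spread between arrays, which may be technical.

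Early erythroid progenitors (burst-forming units) divide and give rise to later progenitors, which then fill with globin and haem, remodel their membrane and lose progenitor genes such as Kit. Glucocorticoids slow this step and let the progenitors renew themselves, which is how they expand red cell output under stress. Zfp36l2 belongs to the ZFP36 family of zinc finger proteins, which bind AU-rich elements of mRNAs and recruit the machinery that removes the poly(A) tail. The comparison asks which mRNAs differ when such a protein is knocked down while DEX is present.

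Values are log2 signals relative to the 75th percentile of their own array, and a difference is shRNA1 minus control virus. The replicate number is also the slide, so each difference could be taken within slide 1 and within slide 2, and both are given in that order. The 75th percentile signal was 966 and 2061 in the control arrays and 476 and 1439 in the shRNA1 arrays, and 61.1% to 62.9% of spots were well above background. Slide 1 was thus the dimmer one, most of all in its shRNA1 array. The number of arrays limits the precision of every value. In bulk RNA, fewer cells of a type and less RNA per cell cannot be told apart.

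Zfp36l2 was lower in both shRNA1 arrays. Its level was 5.55 and 5.42 in the control arrays and 4.09 and 3.92 in the shRNA1 arrays. The groups did not overlap, and the shRNA1 arrays lay close to control cells without DEX, which read 3.49 and 3.85. The difference was -1.48 (SE 0.31), a 2.80-fold lower signal, and was -1.47 and -1.50 on the slides. The probe lies at chr17:84583415-84583474 of build mm9. Limma gave it an adjusted p = 0.923, and 0.229 with the replicate number as a block. The other family members differed the other way. Zfp36l1 differed by 0.52 (0.32 and 0.72), Zfp36l3 by 0.72 (1.08 and 0.36) and Zfp36 by 0.84 (0.99 and 0.69). Their SEs were 0.30, 0.76 and 1.33. For Zfp36l3 and Zfp36 the groups overlapped, and Zfp36 was well above background on 2 of 4 arrays. The median of the 4 family genes, 0.44 above that of all genes, was -0.34 without shRNA1 replicate 1 and -0.11 without control replicate 2.

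Across 19122 genes, limma over all 8 arrays called 0% (0 genes; smallest adjusted p = 0.37), with 400 genes at an unadjusted p under 0.05. With the replicate block it also called 0 genes (smallest adjusted p = 0.121), with 3410 at an unadjusted p under 0.05. No gene named here therefore passed the test, and the differences are given as values. A fit added after seeing the data, limma on these 4 arrays with the block, called 3355 of 18598 genes: 2629 higher (14.1%) and 726 lower (3.9%). That fit leaves 1 residual degree of freedom per gene, so its error rests almost wholly on pooling over genes.

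Other counts describe how the genes spread. On both slides 580 genes (3.03%) were at least 2-fold higher with shRNA1, 117 (0.612%) were at least 2-fold lower, and 43 were at least 2-fold apart in opposite directions. Both shRNA1 arrays lay above both control arrays for 3439 genes (18%) and below them for 1447 (7.57%). This split depends on the scale, being 2458 and 2252 after quantile normalization, 1640 and 2253 with the array median, 2216 and 1250 with normexp background correction, and 2507 and 2191 in the authors' deposited values. The median difference of all genes was 0.18 (0.25 and 0.11), against -0.012 with quantile normalization and -0.23 with the array median. Lists are therefore described by their median minus that of all genes, and by how many members lay beyond the median of all genes on both slides, a count that was met by 7133 genes in each direction (37.3%).

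**Figure D1:**
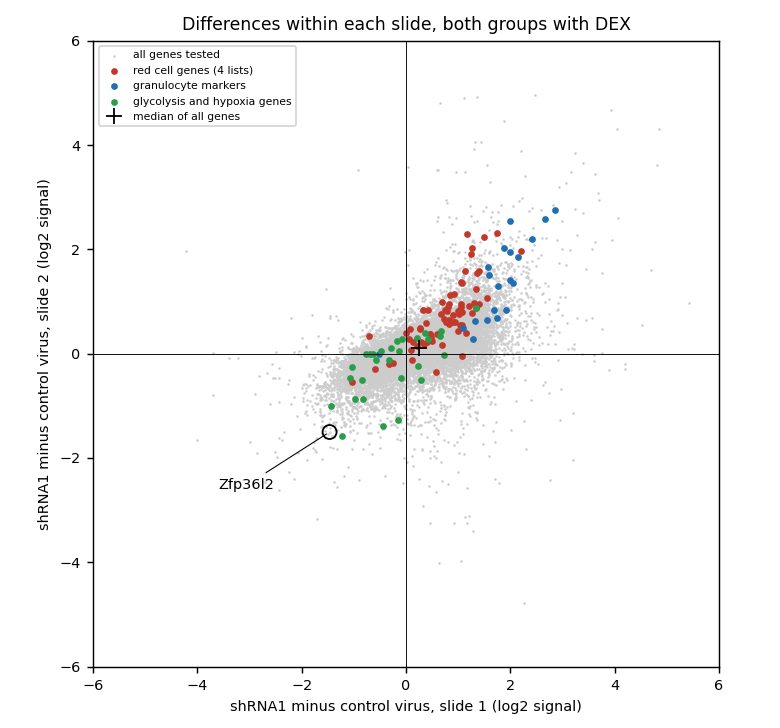
Difference between shRNA1 and control virus on slide 1 (horizontal, log2) against slide 2 (vertical, log2), with 1 point per gene. Zfp36l2 is circled at -1.47 and -1.50; granulocyte markers (blue) lie mostly at the upper right, red cell genes (red) mostly above the median of all genes marked by the cross, and glycolysis and hypoxia genes (green) mostly below it.

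The promoters of 3 red cell genes show the sequence context of the erythroid genes described next. Of the 13 red cell genes that were at least 2-fold higher on both slides, 8 had an entry in the RefSeq promoter table (GRCm38.p6), and 3 of these (37.5%) held AGATAA, a form of the site bound by GATA factors, on either strand within 250 bases before the start. The motif was held by 11.4% of the 27025 genes with an entry. Other forms of the site were not counted. Another form, TGATAA, stands on either strand in the windows of Hba-x and Hbb-y and in a window of Uros. Its share among all genes was not counted, so these figures hold for AGATAA only. A match is a description of the letters, not of binding, and capitals mark the motif, which reads TTATCT in each of the printed strands. The windows are chr2:121036878-121037127 (minus strand) for Epb42, chr17:36869324-36869573 (plus strand) for Trim10 and chrX:150547167-150547416 (plus strand) for Alas2.
Epb42: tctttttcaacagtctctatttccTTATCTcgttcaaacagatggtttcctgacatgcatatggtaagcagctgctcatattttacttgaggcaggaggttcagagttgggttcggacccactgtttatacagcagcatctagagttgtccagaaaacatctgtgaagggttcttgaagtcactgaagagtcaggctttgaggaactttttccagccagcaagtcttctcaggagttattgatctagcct
Trim10: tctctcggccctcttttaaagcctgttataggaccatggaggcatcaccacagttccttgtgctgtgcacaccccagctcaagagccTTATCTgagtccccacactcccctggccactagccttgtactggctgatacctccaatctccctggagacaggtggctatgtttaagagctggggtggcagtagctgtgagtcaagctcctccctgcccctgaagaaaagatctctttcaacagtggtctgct
Alas2: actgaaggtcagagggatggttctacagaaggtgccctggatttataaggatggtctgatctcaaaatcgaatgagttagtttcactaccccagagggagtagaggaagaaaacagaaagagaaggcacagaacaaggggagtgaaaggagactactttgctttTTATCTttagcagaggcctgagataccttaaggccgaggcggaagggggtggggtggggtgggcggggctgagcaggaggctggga

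Most genes of the haemoglobin machinery were higher with shRNA1 on both slides. In the haem synthesis pathway, Alas2, the erythroid enzyme of the first step, read 6.11 and 3.39 in the control arrays and 7.50 and 4.96 in the shRNA1 arrays. The slides differ more than the groups here, so the groups overlap, while the difference within a slide was 1.39 and 1.58. Among the enzymes that follow, the differences were 0.48 for Alad, 1.46 for Uros (1.37 and 1.55), 0.69 for Urod, 0.39 for Cpox, 1.31 for Ppox (1.56 and 1.06) and 0.88 for Fech, which inserts the iron. Alas1, the first-step enzyme of other tissues, differed by 0.18, and by 0.64 on its other probe. Thus 8 of the 9 enzymes lay above the median of all genes on both slides and 0 below it. The 7 carriers and partners were mixed, with 3 above and 2 below. Their median was 0.098 above that of all genes (-0.050 and 0.36). Among them Slc25a38, which brings glycine into the mitochondrion, was higher by 1.02 and Abcb10 by 0.89. In the whole haem list 11 of 16 members lay above the median of all genes on both slides and 2 below it.

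All 8 measured globin and globin partner genes lay above the median of all genes on both slides, with a list median of 0.81 above it (0.80 and 0.81). The adult genes Hba-a1, Hba-a2, Hbb-bs and Hbb-bt differed by 0.79, 0.71, 1.00 and 0.81. Ahsp, the chaperone of free alpha globin, read 6.40 and 6.11 in the controls and 7.46 and 7.0 with shRNA1, without overlap, a difference of 0.97 (SE 0.37). The embryonic genes Hba-x, Hbb-bh1 and Hbb-y differed by 2.09, 1.72 and 1.21, and Hba-x was well above background on 3 of 4 arrays. Probes of near-identical globin copies can pick up each other's RNA, so single globin values are uncertain. Iron genes as a list had a median of -0.030, with 7 of 18 members above and 7 below the median of all genes on both slides. Within it Slc25a37, the mitochondrial iron importer, differed by 1.57 (1.55 and 1.59). The probes of Tfrc, the transferrin receptor, disagreed: the brightest differed by 0.19 (0.18 and 0.21), the others by 0.43 and 0.99. Leaving out 1 array moved the iron median between -0.19 (without shRNA1 replicate 2) and 0.12 (without control replicate 1).

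**Figure D2:**
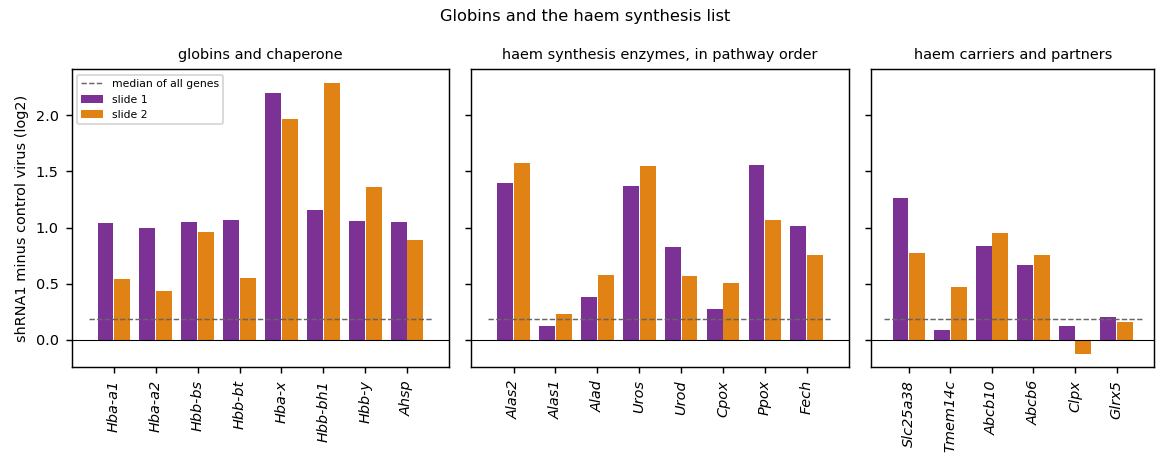
Difference between shRNA1 and control virus (log2) on slide 1 (purple) and slide 2 (orange) for members of the globin and haem synthesis lists; the dashed line is the median of all genes, 0.18. The 8 globin genes stand above the dashed line on both slides, as do Alas2 at 1.39 and 1.58, Uros at 1.37 and 1.55 and Ppox at 1.56 and 1.06.

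The red cell membrane list had a median of 0.50 above all genes (0.44 and 0.50), with 18 of 25 members above the median on both slides and 3 below it. Slc4a1, the band 3 anion exchanger, read 5.35 and 3.01 in the controls and 6.85 and 5.25 with shRNA1, a difference of 1.87 (1.50 and 2.24). The skeleton genes Dmtn and Epb42 differed by 1.57 (1.24 and 1.91) and 1.36 (1.12 and 1.59). The glucose transporter Slc2a1 differed by 1.11. The 3 below it were Cd47 at -0.26, Rhag at -0.22 and the urea transporter Slc14a1 at 0.08.

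Late erythroid genes were at 0.56 above all genes (0.55 and 0.55), with 22 of 24 members above the median on both slides. Ypel4 differed by 2.03, Trim10 by 1.65 (1.26 and 2.03), Fn3k by 1.29 and Ube2o, a ubiquitin enzyme that clears ribosomes in reticulocytes, by 1.17. Car1, a carbonic anhydrase, was the member lying below, at -0.45. Of the 73 genes in the globin, haem, membrane and late erythroid lists together, 59 lay above the median of all genes on both slides and 6 below it. This compares with 37.3% each way for all genes. On both slides 13 were at least 2-fold higher, against 3.03% of all genes.

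In the 4-array fit with the block, limma called 7 of 8 globin genes, 7 of 16 haem genes, 11 of 25 membrane genes and 11 of 24 late genes as higher, against 14.1% of all genes. That fit called 1 of 16 haem genes lower, against 3.9% of all genes. These medians moved when 1 array was left out, which leaves a slide in a single group: globins ran from 0.10 without shRNA1 replicate 1 to 1.30 without control replicate 1, haem genes from 0.31 without control replicate 2 to 0.76 without control replicate 1, membrane genes from 0.26 without shRNA1 replicate 1 to 0.69 without control replicate 1, and late genes from 0.22 without control replicate 2 to 0.80 without shRNA1 replicate 2. Globins were also at 0.24 without control replicate 2.

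Among 23 erythroid regulators, 11 lay above the median of all genes on both slides and 8 below it, against 37.3% each way for all genes. Gata1, the central factor of the lineage, read 5.31 and 5.25 in the controls and 5.45 and 5.42 with shRNA1, a difference of 0.15 (SE 0.28) that was -0.24 in the authors' deposited values. Klf1, the activator of adult globin, differed by 0.32 (0.19 and 0.45). Both lay near the median of all genes, while their partners Zfpm1, Nfe2 and Tal1 differed by 0.70, 0.56 and 0.51. The highest members were Sox6 at 1.15 (0.63 and 1.68), E2f2 at 0.98 (1.03 and 0.92), Foxo3 at 0.95 (1.13 and 0.77), Klf3 at 0.85 and the survival gene Bcl2l1 at 0.81. The lowest was Id1, an inhibitor of helix-loop-helix factors, which read 1.39 and 1.47 in the controls and 0.44 and 0.75 with shRNA1. The list median of 0.18 above all genes was 0.068 without control replicate 2, 0.50 without control replicate 1 and 0.023 with normexp.

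Most progenitor genes lay on the other side. Kit, the receptor of stem cell factor, read 3.88 and 3.45 in the controls and 2.55 and 2.36 with shRNA1. The groups did not overlap, the difference was -1.20 (SE 0.31), and control cells without DEX read 1.99 and 1.89. Cd48 differed by -0.95 (-1.28 on its other probe) and Myb, which holds progenitors in cycle, by -0.54 (-0.46 and -0.63). The list of 23 had a median of -0.42 (-0.30 and -0.45), with 14 members below the median of all genes on both slides and 5 above it, among them Csf1 at 1.26, whose other probes, not well above background, differed by 0.27 and 0.84. Without control replicate 2 this median was 0.014, and without shRNA1 replicate 2 it was -0.74. The 4-array fit with the block called 2 of 23 higher and 2 lower, against 14.1% and 3.9% of all genes.

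Of 29 genes of Kit, Epo and cytokine signalling, 11 lay above and 15 below the median of all genes on both slides, against 37.3% each way for all genes. Socs1, a feedback inhibitor of JAK kinases, read 0.30 and 0.27 in the controls and -1.35 and -0.91 with shRNA1. Its relative Socs3 went the other way, from -0.80 and -1.71 to 0.54 and -0.16. Neither gene overlapped between groups, and the differences were -1.42 (SE 0.40) and 1.45 (SE 0.50). Dusp6, an ERK phosphatase, differed by -0.89 and the kinase Lyn by -0.68, while Pik3r1, a regulatory subunit of PI3 kinase, differed by 0.95. The D cyclins also parted: Ccnd2 was at 3.62 and 3.54 in the controls and 2.64 and 2.48 with shRNA1, and Ccnd3, which governs how many terminal divisions erythroid cells make, was at 5.13 and 4.61 against 6.40 and 5.90. Their differences were -1.01 (SE 0.29) and 1.28 (SE 0.45), alike on both slides.

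Most receptors and signalling Smads of the TGF-beta pathway, which carries growth-restraining and differentiation signals, were lower. The brightest probe of Tgfbr2 read 0.84 and 0.58 in the controls and -0.59 and -0.38 with shRNA1, with no overlap. Its other probe, also well above background on all 4 arrays, differed by 0.083 (0.36 and -0.19), so the direction for Tgfbr2 is not settled. By brightest probe the differences were -1.21 for Tgfbr1, -1.19 for Tgfbr2 (SE 0.35), -1.14 for the co-receptor Tgfbr3 and -1.13 for the BMP receptor Bmpr1a. Smad2 and Smad3, the mediators that TGF-beta receptors phosphorylate, differed by -1.25 and -1.02 (the other Smad3 probe, well above background on 1 of 4 arrays, by -0.44), and the other signalling Smads by -0.51 to -0.09. Thus 7 of 9 receptors and 5 of 5 signalling Smads lay below the median of all genes on both slides, and 1 receptor, Acvr2b at 0.72, lay above. Of the 4 ligands 3 lay above, with Gdf15 at 1.98 and Bmp4 at 0.74. The third, Inhba, and the inhibitory Smad6 also lay above but were well above background on 2 of 4 arrays, so no size is given. In the list of 25 the median was -0.34 (-0.41 and -0.28). The 4-array fit with the block called 7 of 24 lower, against 3.9% of all genes, and 2 higher, against 14.1%. The list median was -0.21 in the authors' deposited values. The grouping by role was made with the values known.

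**Figure D3:**
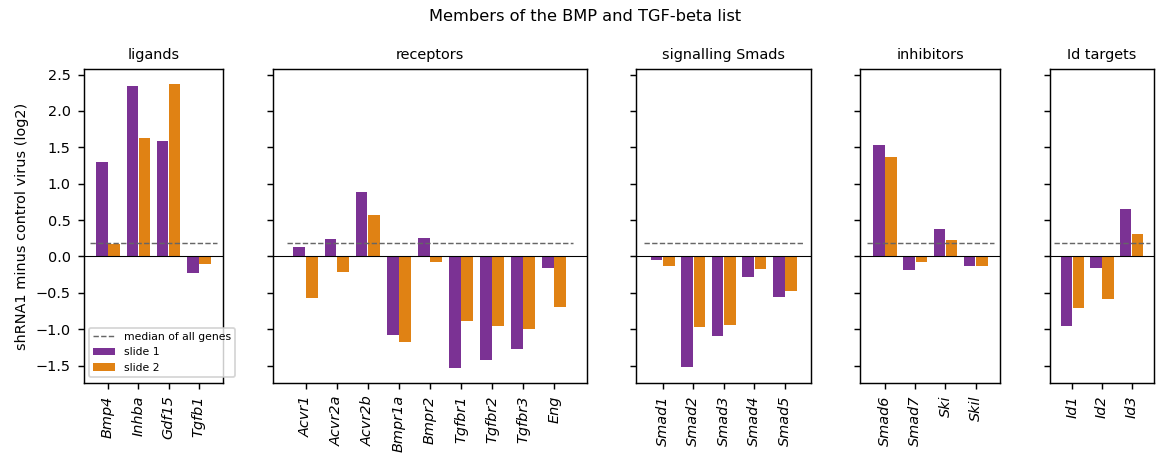
Difference between shRNA1 and control virus (log2) on slide 1 (purple) and slide 2 (orange) for the 25 measured members of the BMP and TGF-beta list by role; the dashed line is the median of all genes. By brightest probe Tgfbr1, Tgfbr2, Tgfbr3, Bmpr1a, Smad2 and Smad3 lie between -0.88 and -1.54 on either slide, while Gdf15 lies above 1.5; Inhba and Smad6 were well above background on 2 of 4 arrays.

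Most hypoxia genes outside glycolysis were lower, a grouping made with the values known. Pdk1, a pyruvate dehydrogenase kinase, read 0.49 and 0.68 in the controls and -0.95 and -0.31 with shRNA1. It differed by -1.21 (SE 0.64), Ankrd37 by -1.40 (-1.23 and -1.57), and the oxygen-sensing prolyl hydroxylases Egln1 and Egln3 by -0.92 and -0.85. Of the 12 hypoxia genes that are not glycolytic, 10 lay below the median of all genes on both slides and 0 above it; Vegfa at 0.10 (0.96 on its other probe) and Kdm3a at 0.35 did neither. The 17 genes of glucose uptake and glycolysis were mixed, with 9 below and 5 above. The largest differences among them were Slc2a1, itself induced by low oxygen, at 1.11 and Pgk1 at -0.77, and Aldoc, Gapdh, Hk1 and Pfkm also lay above the median of all genes, though other probes of Gapdh ran from -0.37 to 0.36 and those of Hk1 from 0.050 to 0.24. The list of 29 had a median of -0.41 (-0.54 and -0.13); without control replicate 2 it was -0.73. Both shRNA1 arrays lay below both controls for 12 members and above them for 1, against 7.57% and 18% of all genes; after quantile normalization these were 14 and 1, with 2252 of all genes below.

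Growth and division genes depended on the slide. Ribosome biogenesis genes had a median of -0.85 on slide 1 and -0.12 on slide 2, with 24 of 35 below the median of all genes on both slides and 3 above it. Mitochondrial respiration genes were at -0.67 and -0.13, with 26 of 34 below and 1 above. S phase genes were at -0.72 and 0.00036 and G2 and M phase genes at -0.62 and 0.037. Mcm2, a replicative helicase subunit, read 2.38 and 3.25 in the controls and 1.39 and 3.36 with shRNA1, and Ccna2 read 3.35 and 4.39 against 2.76 and 4.49. In both genes the shRNA1 array of slide 1 was the lowest of the 4. Without that array the medians were 0.13 for ribosome biogenesis, 0.079 for respiration, 0.46 for S phase and 0.42 for G2 and M phase; without shRNA1 replicate 2 they were -1.29, -0.99, -1.30 and -1.10.

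**Figure D4:**
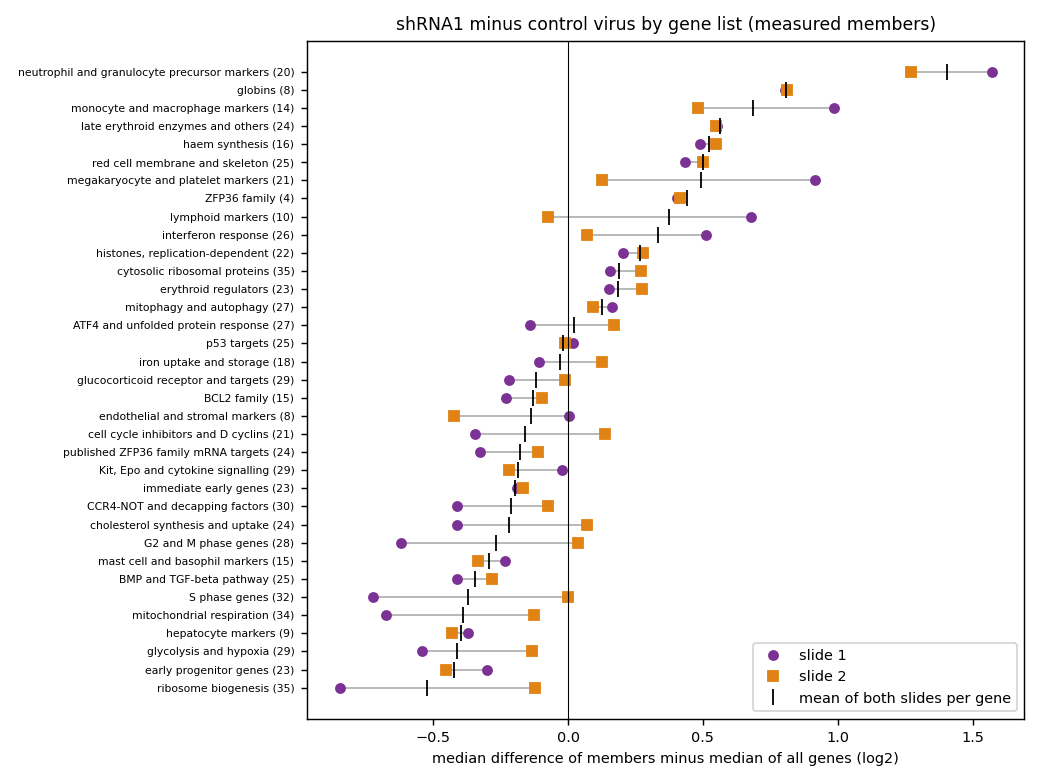
Median difference of the measured members of each of the 35 gene lists minus the median of all genes (log2), on slide 1 (purple circles), on slide 2 (orange squares) and over both (black bars), with the number of members in brackets. Granulocyte markers stand highest at 1.40, ribosome biogenesis lowest at -0.52 with slides at -0.85 and -0.12, and the red cell lists lie at nearly the same value on both slides.

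Granulocyte markers were higher with shRNA1, although cells positive for lineage markers or CD16/32 had been depleted before culture. Camp, the cathelicidin of secondary granules, read -1.15 and -1.10 in the controls and 1.71 and 1.66 with shRNA1. Ngp read -2.52 and -2.77 against 0.15 and -0.19. The groups stood well apart, with differences of 2.81 (SE 1.11) and 2.62 (SE 1.10). The SE pools the spread within all 4 groups: Camp read 4.32 and 0.95 with shRNA2 and 0.12 and 1.89 in controls without DEX.

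Of 20 granulocyte markers 19 lay above the median of all genes on both slides, against 37.3% of all genes. On both slides 12 were at least 2-fold higher, against 3.03% of all genes. The 4 secondary granule genes, with Lcn2 at 2.31 and Ltf at 2.27, had a median of 2.28 above all genes. The 4 primary granule genes, which come earlier in granulocyte maturation, had a median of 1.06, with Elane at 1.26. The summed linear signal of the 20 markers, in units of the array's 75th percentile, was 117 and 110.0 in the controls and 303 and 209 with shRNA1. Cd177, Mmp9 and Retnlg were not measured.

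Other lineages were weaker or mixed. Of 24 monocyte and macrophage markers 14 were measured, 11 of them well above background on all 4 arrays. Of the 14 measured, 13 lay above the median of all genes on both slides, against 37.3% of all genes. Their median was 0.69 (0.99 and 0.48), but 0.33 in the authors' deposited values and 0.32 without a filter on dim probes. Their summed signal was 24.0 and 8.86 in the controls and 63.1 and 12.9 with shRNA1. Csf1r, the receptor of macrophage colony-stimulating factor, differed by 1.40 (0.58 and 1.25 on its other probes) and Lyz2 by 1.64. Megakaryocyte markers were at 0.92 on slide 1 and 0.13 on slide 2, and at -0.16 without shRNA1 replicate 1, with Gp9 at 1.58 and Pf4 at 0.72 (1.47 and -0.03). Mast cell markers were at -0.29, with 9 of 15 below and Cpa3 at -0.18; the median was -0.76 without control replicate 2 and -0.072 without control replicate 1. Summed signals of lymphoid, hepatocyte and endothelial markers were between 1.84 and 8.16 on all 4 arrays. The granulocyte and monocyte markers moved with the same contrast as the red cell, progenitor and TGF-beta genes, and their part in those results was not tested.

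The genes furthest apart between groups were mostly outside these lists. Among genes well above background on all 4 arrays, Serinc2, of a family linked to serine-containing lipids, stood first: it read -5.32 and -5.19 in the controls and -0.51 and -1.58 with shRNA1. Its difference was 4.21 (SE 0.72), an 18.6-fold higher signal, while controls without DEX read -1.42 and -1.47 and shRNA2 cells -4.08 and -6.18. The control arrays with DEX are those of both contrasts, so such levels are given side by side only. Ltbp2, a matrix protein related to latent TGF-beta binding proteins, differed by 3.33 (3.71 and 2.95), Kash5 by 3.04 (3.40 and 2.69) and Rnu3b1, a copy of the U3 small nucleolar RNA whose near-identical copies share signal, by 3.34 (4.07 and 2.61). Tac2 (neurokinin B) differed by 2.60 (2.42 and 2.79) and the matrix protein Podn by 2.78 (3.29 and 2.28).

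Some genes were not well above background in either control array, so their difference is given as a bound set by the dimmest measurable signal. Gal3st3, a sulfotransferase, was at least 7.46-fold higher with shRNA1, Cx3cl1, the chemokine fractalkine, at least 7.50-fold, Rem2 at least 7.27-fold and Olfr1052 at least 4.24-fold. The other Olfr1052 probe was not well above background on any of the 4 arrays and differed by 0.43. In the other direction Rufy4 was at least 2.91-fold lower, Hnmt, which inactivates histamine, at least 2.18-fold, Traf3ip2 at least 1.99-fold and Zfp459 at least 1.41-fold. Zfp459 differed by 0.17 with normexp background correction, so its direction is not settled.

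Some of the lowest genes, but not all, were expressed little by control cells without DEX. Trnp1 read 0.78 and 2.08 in the controls and -1.92 and -0.38 with shRNA1, against -6.82 and -6.58 in controls without DEX. Rasd1, a Ras-like gene induced by dexamethasone, read -1.42 and -2.88 against -3.04 and -4.89, and without DEX -5.69 and -7.31. Spink2, a protease inhibitor, differed by -2.20 (-2.51 and -1.88) and the transcription factor gene Nfatc2 by -2.23 (-2.47 and -1.98). The other Nfatc2 probe, well above background on 1 of 4 arrays, differed by -0.20. The ephrin receptor Epha2 differed by -1.80 (-1.78 and -1.82), Itm2a by -1.73 and the zinc importer Slc39a10 by -2.02. Dhrs1, Nectin1 and Slc28a2b differed by -1.68, -2.02 and -1.66, and the other Slc28a2b probe by -0.85. For Slc39a10 the controls read -0.67 and 0.53 with DEX and -0.83 and 0.052 without it. Dhrs1 read 0.46 and -0.23 in the controls with DEX and -0.23 and -0.62 in those without.

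**Figure D5:**
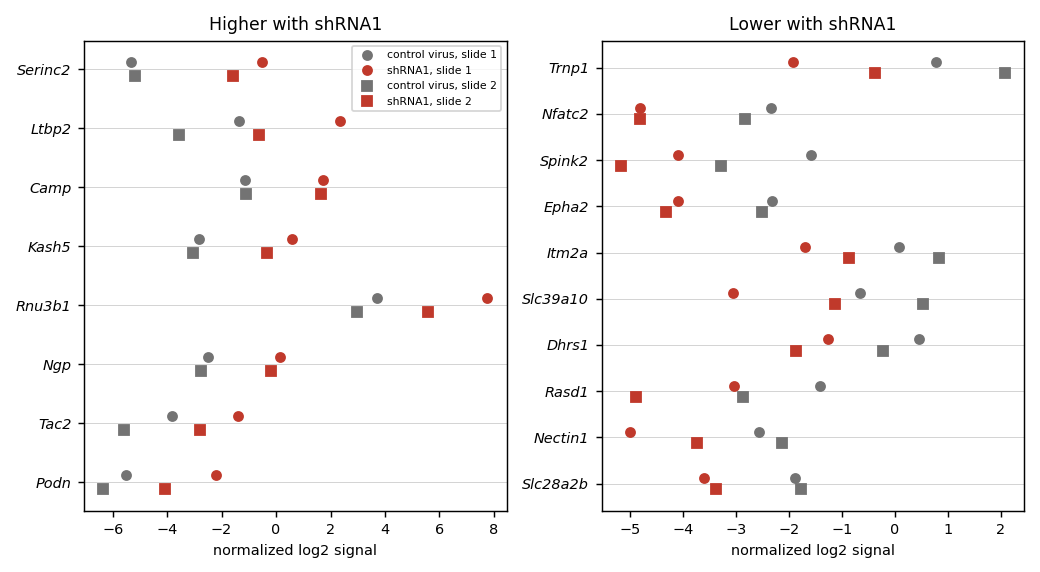
Normalized log2 signal (horizontal) of 8 genes furthest higher and 10 furthest lower with shRNA1, for control virus (grey) and shRNA1 (red), with slide 1 as circles and slide 2 as squares. In every gene shown both red points lie on the same side of both grey points, since this was required for a gene to be shown.

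Glucocorticoid genes were mixed. Of 29 genes in the list of the receptor and its targets, 12 lay below the median of all genes on both slides and 8 above it. For all genes this was 37.3% each way. The list median was -0.12 (-0.22 and -0.011 on the slides). It was -0.27 without control replicate 2, -0.047 without control replicate 1, -0.038 with quantile normalization and -0.0013 in the authors' deposited values. Fkbp5, a chaperone partner of the receptor, read 2.24 and 2.44 in the controls and 1.09 and 2.01 with shRNA1, a difference of -0.79. Sgk1 differed by -0.75 (-0.84 and -0.65). Tsc22d3 (GILZ) differed by 0.11 and by -0.30 with array median scaling. Lcn2 and Anxa1, at 2.31 and 1.40, are also made by granulocytes.

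Published mRNA targets of the ZFP36 family had a median of -0.18 (-0.33 and -0.11), with 8 of 24 above and 12 below the median of all genes on both slides, against 37.3% each way. The 4-array fit with the block called 5 of 22 higher and 0 lower, against 14.1% and 3.9% of all genes. The median was -0.54 without shRNA1 replicate 2, -0.054 without shRNA1 replicate 1 and -0.034 with quantile normalization. Ccl3 differed by 1.18, while Myc differed by -0.58 (-0.72 and -0.43) and Cbl by -0.50. Genes of the CCR4-NOT deadenylase and decapping were at -0.21, with Pabpc4, a poly(A)-binding protein, at 0.90 and Lsm1 at -0.88. That median was -0.56 without shRNA1 replicate 2, -0.0042 without shRNA1 replicate 1 and -0.031 with quantile normalization. The target list was drawn from several cell types and says nothing of which mRNAs the protein binds here.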

How the data were processed

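The deposited intensity of a spot is the scanner's processed signal, not logged. The authors quantified the arrays with Agilent Feature Extraction, version 10.1.1.1 per the file headers, and limma is also named in the submitters' processing notes. A table of log2 values by the authors served as an alternative; its normalization steps are unknown here, its column medians are 6.65 to 6.66 and its direction is that of the raw signal.

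Control spots (1377 of 44397) and outlier spots were left out, spots of a probe were averaged, and 38988 of 39429 probes remained. Signals were log2 transformed and the array's 75th percentile subtracted. Probe accessions named 26581 probes through the RefSeq table, while 12848 kept the array's name. Probes well above background on every array of any group entered the test, and each gene was represented by its brightest probe (3899 genes had several). The contrast was fitted in limma 3.58.1 (lmFit, eBayes; R 4.3.3) over all 8 arrays, at a Benjamini-Hochberg adjusted p of 0.05; code was tested on simulated data. Alternatives were the replicate block, quantile and median scaling, normexp (offset 50), the authors' table, other filters and probe rules, the 4 arrays alone and each array left out. The replicate number equals the slide in the file headers, and same-numbered arrays deviated together (correlations 0.431 to 0.859 over genes), so the numbers pair the arrays. A bound sets the brighter group's mean against, per array, the dim probe's own signal or the lowest signal well above background, whichever is higher.

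Members, lists and the roles within lists were chosen with earlier results of these data known. Named genes are the 10 furthest in each direction by the smaller within-slide difference, without overlap and well above background on all 4 arrays, the first 4 bounds per direction, up to 4 per list by the same ranking, and 30 textbook genes. Hbb-b1 and Gata2 were not measured. Some genes that the rule or a list names are not reported here, though list counts and medians include them. Outside this rule and the pathways shown whole, these were chosen after their values were seen: Acvr2b, Aldoc, Bcl2l1, Bmp4, Car1, Cd47, Ddit3, Fn3k, Gadd45a, Gapdh, Gdf15, H1f2, Hk1, Isg15, Kdm3a, Lyn, Nfe2, Oas3, Oasl2, Pfkm, Pgk1, Rhag, Rsad2, Slc14a1, Slc2a1, Smad3, Smad6, Sox6, Tal1, Tgfbr1, Tgfbr3, Trib3, Ube2o, Ulk1, Vegfa, Wipi1, Ypel4, Zfpm1. Figures were drawn with matplotlib 3.10.9.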

Additional observations from a re-analysis of the deposited data

How the results depend on the processing

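The count of 0 genes held with the replicate block, the other scalings, filters and probe rules and each left-out array, while limma on the 4 arrays with the replicate block, chosen after seeing the data, called 3355 genes and gave the Zfp36l2 difference, shRNA1 against control virus, of -1.48 with a limma adjusted p = 5.37e-05 (0.196 to 1.0 in the other settings). The replicate block changed no other call. Leaving out 1 array, the list medians ran from 0.10 to 1.30 for globins, 0.31 to 0.76 for haem synthesis, 0.26 to 0.69 for the membrane, 0.22 to 0.80 for late erythroid genes, 1.13 to 1.80 for granulocyte markers, -0.74 to 0.014 for progenitor genes (reversed without control replicate 2) and -0.73 to -0.26 for glycolysis and hypoxia. In the order globins, haem synthesis, membrane, late genes, the medians were 0.66, 0.35, 0.32 and 0.40 with normexp, 0.65, 0.36, 0.34 and 0.39 without a filter on dim probes, and 0.78, 0.58, 0.57 and 0.66 with quantile normalization. Globins and late genes were at 0.57 and 0.57 in the authors' values and 0.82 and 0.57 with the 4 arrays alone; late genes were at 0.58 with probes well above background on all 4 arrays, and the membrane at 0.61 with the median of probes. Granulocyte markers were at 1.08 with normexp and progenitor genes at -0.58 without a filter. Of 908 values of 54 named genes over 17 alternatives, 22 turned sign, in 13 genes. Array median scaling subtracts the same amount from every gene, so the 5 signs it turned follow from that shift alone: Tfrc was at -0.22, Gata1 -0.26, Klf1 -0.092, Bnip3l -0.10 and Tsc22d3 -0.30. Gata1 was at -0.24 in the authors' values and Zfp459 at 0.17 with normexp. Leaving out 1 array turned the sign of Tfrc (-0.18 to 0.56), Zfp36 (-0.49 to 2.17), Ccna2 (-1.11 to 0.62), Cpa3 (-1.27 to 0.91), Tsc22d3 (-0.20 to 0.42), Hba-a1 (-0.060 to 1.64), Cdkn1b (-0.041 to 1.88), Mcm2 (-1.43 to 0.54), Pf4 (-0.36 to 1.81) and Bnip3l (-0.074 to 0.69), and by its construction leaves a slide in 1 group only. The cause of the other moves was not tested. Of 595 list values 50 turned sign. With 2 arrays a group, no sample could be tested as an outlier, and dim probes limit what can be seen.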

Other observations

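Interferon-induced genes had a median of 0.33 above all genes (0.51 and 0.07), with 16 of 26 above the median on both slides and 7 below it. Of the 26, 18 were well above background on all 4 arrays. At least 2-fold differences on both slides were 5 higher and 1 lower (3.03% and 0.612% of all genes), and by non-overlapping arrays 1 was higher and 3 lower (18% and 7.57%). Isg15 read 1.09 and -1.34 in the controls and 2.66 and 0.20 with shRNA1, a difference of 1.56 (1.56 and 1.55). Oasl2 differed by 1.63, Rsad2 by 1.46 and Oas3 by 1.15, while Gbp3 differed by -1.40 and Bst2 by -0.79. For Isg15 the slides differed more than the groups, and without shRNA1 replicate 1 the list median was -0.25, without control replicate 2 it was -0.0093, and without shRNA1 replicate 2 it was 0.93.

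The histone list was meant for replication-dependent genes, which are made for new chromatin, but also holds replacement histones such as H1f0 and H3f3b. It was at 0.27 above all genes (0.20 and 0.28), with 16 of 22 above the median on both slides and 1 below it. This median was 0.14 without control replicate 2 and 0.13 with normexp. Among its members H1f2 differed by 1.01, H1f4 by 0.79 and H2bc18 by 0.71. Ribosomal protein genes were at 0.19 (0.15 and 0.27) as given, but at -0.00046 with quantile normalization and -0.084 in the authors' deposited values, and between -0.037 (without control replicate 2) and 0.49 (without control replicate 1) with 1 array left out. In the stress lists, Trib3 and Ddit3, which ATF4 induces, differed by 1.25 and 1.19, and Gadd45a and Mdm2, which p53 induces, by 1.36 and 0.88. The lists themselves stood at 0.023 and -0.018, and both took either sign when 1 array was left out. In the ATF4 list 9 of 27 lay above the median of all genes on both slides and 8 below it. In the p53 list 9 of 25 lay above and 9 below, among the latter Perp at -0.80. For all genes this was 37.3% each way. Of the autophagy genes Atg4d differed by 1.20, Ulk1 by 1.11 and Wipi1 by 1.09, while Atg4c differed by -0.56. The list median was 0.13, with 15 of 27 members above the median of all genes on both slides and 9 below. That list median was -0.22 without shRNA1 replicate 1, -0.13 without control replicate 2 and -0.031 with normexp.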
